A study of Mus musculus with 26 samples.

Results

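A set of 42 imprinted genes was followed through the RNA-Seq libraries and the CUT&RUN peak lists of mouse embryonic fibroblasts (MEFs), unaltered, with a deletion in Atrx or given an shRNA against it. The genes were taken from a list of symbols, chosen with earlier results of these data known. They were matched by Ensembl identifier to the 53801 genes of the RNA-Seq files. They lie in 17 imprinted clusters on 10 chromosomes, and 14 of them have a germline differentially methylated region (DMR) at a promoter.

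An imprinted gene is expressed mainly from the chromosome inherited from 1 parent. DNA methylation set in the egg or sperm at an imprinting control region marks the parental origin, and in several clusters a long noncoding RNA made from the unmethylated paternal copy silences protein-coding neighbours on the same chromosome. Polycomb repressive complex 2 (PRC2), whose catalytic subunit EZH2 trimethylates lysine 27 of histone H3 (H3K27me3), is known to act on several of these clusters. ATRX is a chromatin remodeller that binds RNA and helps to deposit histone H3.3 at silent chromatin.

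The cells compared were all female MEFs. The study names the laboratory that supplied its parental MEFs, but does not state that all the cells share the same parental line. A difference between parental lines was not tested. The kinds of cell were unaltered cells (WT), ATRXΔRBR cells, and cells given an shRNA against Atrx and selected with puromycin (labelled ATRX KD). For ATRXΔRBR, CRISPR/Cas9 with flanking guides removed the RNA binding region of the endogenous protein, and clones were picked. Poly(A) RNA was sequenced in 2 libraries of each kind, with total estimated counts of 13320635 and 11856636 in the WT libraries, 9574174 and 13694802 in ATRXΔRBR and 9051693 and 21723647 in the libraries labelled ATRX KD. CUT&RUN, in which a nuclease tethered to an antibody releases the bound DNA, gave 16 peak lists, 2 each for EZH2 and H3K27me3 in every kind of cell and for ATRX in WT and ATRXΔRBR. The line carrying the deletion is a picked clone, so the deletion and other properties of the clone cannot be told apart, and RNA and chromatin were read over both parental chromosomes together.

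The target gene was examined before the imprinted genes. Atrx had 633 and 433.8 CPM (counts scaled to the size of the library) in the WT libraries, 370.9 and 311.9 CPM in ATRXΔRBR and 411.1 and 550.4 CPM in the libraries labelled ATRX KD. Its RNA was not called different from WT in the cells labelled ATRX KD (log2 fold change −0.16, edgeR adjusted p = 0.604) or in ATRXΔRBR (log2 fold change −0.64, SE 0.22, edgeR adjusted p = 0.14). The CPM of the libraries labelled ATRX KD overlap those of WT. On the TPM scale (counts scaled to transcript length and library size) Atrx stood at 233.39 and 140.77 in the WT libraries, 175.32 and 124.4 in ATRXΔRBR and 331.04 and 511.62 in the libraries labelled ATRX KD, both above WT. A lower level of Atrx RNA was thus not measured under that label. The study assessed its knockdown lines by protein, on a western blot, and protein was not measured in these files.

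The peak lists labelled ATRX KD also stood apart from the rest. Their H3K27me3 peaks covered 6370 and 5597 kb of the genome, against 102989 and 118350 kb in WT and 147451 and 126920 kb in ATRXΔRBR. Their strongest peaks reached −log10 q values of 169.7 to 178.8, whereas no list of the other cells passed 36.8. The raw read files of the cells labelled ATRX KD carry another naming form than those of the other cells, RNA-Seq included, so a separate preparation or sequencing run and the knockdown cannot be told apart. The files give no read number for the peak lists, and the study states only an approximate range over its samples, so the depth behind each list was not compared.

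Fibroblast markers were abundant in all 6 RNA-Seq libraries. The 12 markers summed to 13780.51 and 11466.41 TPM in the WT libraries, 21330.2 and 23394.71 TPM in ATRXΔRBR and 18808.9 and 19061.11 TPM in the libraries labelled ATRX KD, with S100a4 the most abundant and Thy1 at 0 in every library. Col3a1, a fibrillar collagen of fibroblasts, had 937 and 733 counts in the WT libraries, 342 and 472 in ATRXΔRBR and 4 and 12 in the libraries labelled ATRX KD. Of 10 tested fibroblast markers, S100a4 was called higher and Col3a1 lower in ATRXΔRBR. Called higher in the libraries labelled ATRX KD were 4, S100a4, Col5a1, Fn1 and Pdgfrb, with log2 fold changes of 0.62, 0.74, 0.99 and 0.51, and called lower were 2, Col3a1 and Postn, at −6.99 and −3.65. Markers of other cells were low, and some of them moved with the cells compared. The 5 neural markers summed to 37.94 to 65.57 TPM, with Sox10 at 0. Map2 had the highest mean of them over the 6 libraries, but made up 14.58 of 60.95 TPM in WT replicate 1. It had 528 and 699 counts in the WT libraries and 999 and 2210 in the libraries labelled ATRX KD, where it was called higher (log2 fold change 1.09, edgeR adjusted p = 0.00508). Sox2, a transcription factor of neural progenitors, had 637 and 442 counts in the WT libraries, 170 and 254 in ATRXΔRBR and 9 and 11 in the libraries labelled ATRX KD, and was called lower in both (log2 fold changes −1.23 and −6.00, edgeR adjusted p = 0.0102 and 9.05e-05). The 4 adipocyte markers summed to 27.22 to 82.59 TPM, led by Fabp4, with Adipoq at 0. Pparg, a regulator of fat cell differentiation, had 41 and 24 counts in the WT libraries, 0 in both ATRXΔRBR libraries and 5 and 22 in the libraries labelled ATRX KD, and was called lower in both (edgeR adjusted p = 0.00547 and 0.0352). Pecam1, an endothelial adhesion protein, had 20 and 21 counts in the WT libraries, 51 and 53 in ATRXΔRBR, where it was called higher (edgeR adjusted p = 0.0479), and 0 in both libraries labelled ATRX KD, where it was called lower (edgeR adjusted p = 0.00373). Tek, also endothelial, went the other way in ATRXΔRBR, with 13 and 7 counts in the WT libraries and 3 and 5 there. It was not called (log2 fold change −1.18, edgeR adjusted p = 0.347). In the libraries labelled ATRX KD, Tek (2 and 0 counts) and Kdr (log2 fold change 0.59) were not called (edgeR adjusted p = 0.0597 and 0.681). The 5 haematopoietic markers summed to 4.55 to 12.2 TPM, led by Cd68. Sums were at most 1.12 TPM for epithelial, 5.55 TPM for endothelial, 2.99 TPM for myogenic, 0.35 TPM for pluripotent and 0.32 TPM for trophoblast markers. Des, a myogenic marker, was called higher in ATRXΔRBR (4 and 3 counts in WT, 16 and 31 there, edgeR adjusted p = 0.0194), and Acta1 was not (edgeR adjusted p = 0.512). In the libraries labelled ATRX KD, Fabp4 and the epithelial Cdh1 were called lower (log2 fold changes −1.61 and −2.99, edgeR adjusted p = 0.00127 and 0.0204). The part of these differences in the results below was not tested. In bulk RNA, fewer cells of a type and less RNA per cell cannot be told apart.

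Many of the imprinted genes were silent or scarce in these fibroblasts, and several were abundant. There were 6 genes, Slc22a3, Ascl2, Usp29, Zim1, Rasgrf1 and Zdbf2, with 0 counts in every library. Another 8, H19, Igf2, Peg3, Meg3, Mirg, Dio3, Ndn and Magel2, had 1 to 10 counts over the 6 libraries together. At the other end, 17 genes had at least 10 counts in each library. On the TPM scale Gnas, the stimulatory G protein alpha subunit, was the most abundant of the 42 with a mean of 674.2 TPM over the 6 libraries. Commd1, a copper homeostasis protein, followed at 279.7 TPM, Grb10, an adaptor that inhibits insulin and IGF1 receptor signalling, at 190.4 TPM, and Cd81, a tetraspanin, at 139.2 TPM. The order of the latter pair differed between the cells, with Cd81 above Grb10 in WT (means of 159.2 and 108.5 TPM), close to it in ATRXΔRBR (230.9 and 221 TPM) and below it in the libraries labelled ATRX KD (27.38 and 241.8 TPM). In each cluster with expression, the most abundant gene was Igf2r, Cd81, Mest, Dlk1, Grb10, Plagl1, Sgce, Ube3a, Blcap, Gnas, Impact, Commd1 or Dcn, while the H19/Igf2 and Peg3 clusters were led by Igf2 at 0.22 TPM and by Peg3, each with 10 counts or fewer. These are means over the 6 libraries, and within ATRXΔRBR Dlk1 did not lead its cluster (0.07 TPM, against 0.42 TPM for Mirg), while Dcn was at 0 in the libraries labelled ATRX KD.

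Changes between the cells were tested on rounded estimated counts with edgeR's quasi-likelihood test and Benjamini-Hochberg adjustment over all genes with more than 10 counts in the 4 libraries compared, and a gene was called at an adjusted p under 0.05 (the edgeR adjusted p). The tested imprinted genes numbered 28 of 42 in ATRXΔRBR against WT, and 8 were called, of which 2 were higher and 6 lower. Over the 16287 genes tested, 6.88% were called, 2.79% higher and 4.08% lower. Of 18 imprinted genes with at least 10 counts in each of the 4 libraries, 2 were called, Grb10 and Zrsr1, against 597 of 11929 genes, 315 higher and 282 lower, in place of 455 and 665. The median log2 fold change was 0.03 over the 28 imprinted genes and −0.02 over all genes, and the median absolute log2 fold change was 0.56 against 0.32. With limma on log2(TPM + 1), 4 imprinted genes were called, 2 higher and 2 lower, against 2.99% of all genes. On log2(TPM + 0.1) it called 1 higher and 3 lower, against 3.18%. A block pairing opposite replicate numbers, chosen after seeing the data, called 15, 6 higher and 9 lower, against 34.1% of all genes. In the libraries labelled ATRX KD, 27 were tested and 18 called, 6 higher and 12 lower, with a median log2 fold change of −0.29 and a median absolute change of 1.00. Over the 16748 genes tested there, 33.1% were called, 15.2% higher and 17.8% lower, and the medians were −0.02 and 0.53. There 20 imprinted genes had at least 10 counts in each of the 4 libraries compared. Of these 13 were called, 7 higher and 6 lower, against 4706 of 11781 genes. Without replicate 1 or replicate 2 labelled ATRX KD, 3520 and 3194 of all genes were called in place of 5542, and 14 and 12 imprinted genes in place of 18. Without WT replicate 2, 8953 of all genes and 19 imprinted genes were called. With limma on log2(TPM + 1) the calls over all genes were 2650 higher and 1469 lower, in place of 2553 and 2989. Both comparisons share the WT libraries.

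Directly between ATRXΔRBR and the cells labelled ATRX KD, 17 of 26 tested imprinted genes were called, 9 higher and 8 lower in ATRXΔRBR. The share of all 16485 genes called was 34.8%, with 18.5% higher and 16.3% lower. Without replicate 1 or replicate 2 labelled ATRX KD, 3485 and 3088 of all genes were called in place of 5734, and without ATRXΔRBR replicate 1, 8734. With limma on log2(TPM + 1) the calls over all genes were 1747 higher and 2743 lower, in place of 3051 and 2683. A gene at or near 0 in 1 group entered a test only through the other group, so these counts are descriptions of the set. The plot of log2 fold changes shows both comparisons with WT side by side.

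**Figure D1:**
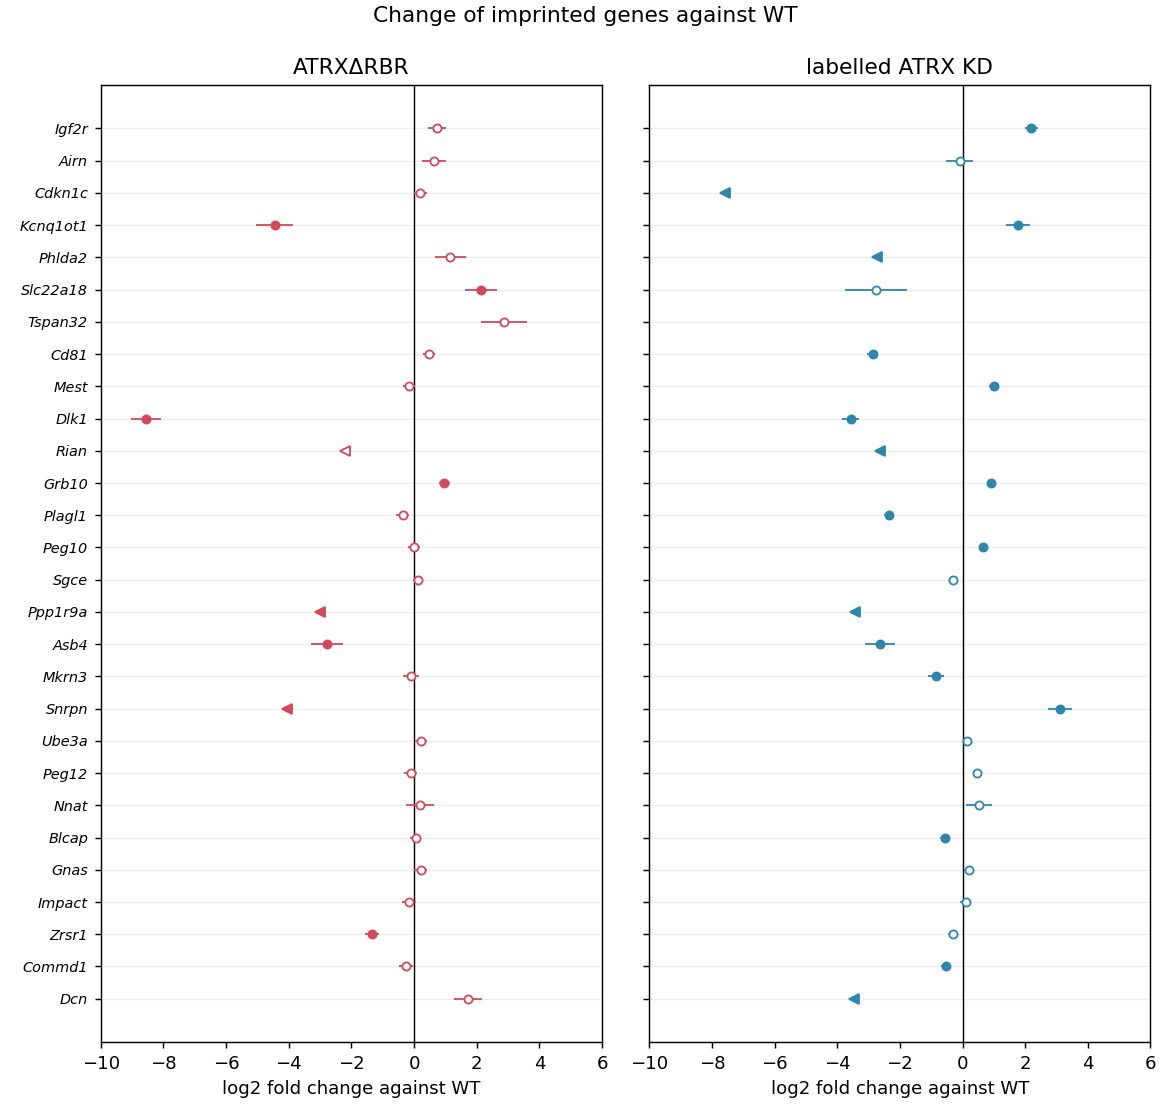
Log2 fold change of each tested imprinted gene against WT in ATRXΔRBR (left) and in the libraries labelled ATRX KD (right), 2 libraries against 2. Points carry bars of 1 SE, filled symbols were called by edgeR at an adjusted p under 0.05, and triangles mark lower bounds on the fall of genes with 0 counts in both libraries of the altered cells. The 8 called genes in ATRXΔRBR run from Dlk1 at −8.55 to Slc22a18 at 2.14.

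Peaks were placed at a gene's start when they overlapped the window of 2 kb each side of its outermost annotated start (TSS), in the mm10 build. ATRX peaks were nearly absent from the imprinted starts, where 0, 0, 1 and 0 of the 42 genes carried a peak in WT replicates 1 and 2 and ATRXΔRBR replicates 1 and 2. The same windows held an ATRX peak for 6.76%, 3.39%, 7.31% and 3.06% of the 55450 annotated genes. Among protein-coding genes the shares were 12.04%, 5.758%, 13.62% and 4.966%. The single start was that of Commd1 in ATRXΔRBR replicate 1 (chr11:22981577-22981982, in an intron, fold enrichment 3.80, −log10 q 1.39). No imprinted gene therefore had an ATRX peak at its start in both lists of 1 genotype and in neither list of the other, a pattern met by 0.247% of all genes for WT against ATRXΔRBR and by 0.198% in the reverse direction.

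Anywhere in the gene or its start window, ATRX peaks lay in 5 and 3 of the 42 genes in the WT lists (11.9% and 7.14%, against 10.6% and 5.89% of all genes) and in 2 and 3 in ATRXΔRBR (4.76% and 7.14%, against 9.74% and 5.64%). The intron of Ppp1r9a, which encodes the actin-binding protein neurabin, held an ATRX peak in all 4 lists, at chr6:4923845-4924169 in WT replicate 1, about 21 kb past the start. Its fold enrichment was 3.29 and 4.21 in WT and 3.51 and 2.84 in ATRXΔRBR. At the same place an EZH2 peak was called in both lists labelled ATRX KD (fold enrichment 7.34 and 7.47) and in no other EZH2 list. Immunoglobulin control libraries were not analysed, so whether the place gives signal without a specific antibody was not tested. Sgce, a sarcoglycan gene, held a peak over an exon in WT replicate 2 (chr6:4708996-4709406) and at the same place in ATRXΔRBR replicate 2, and another in an intron in WT replicate 1 (chr6:4740271-4740698). Peaks in Airn, Blcap, Commd1 and Igf2r were each in 1 list at any given place.

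EZH2 peaks were at more imprinted starts in WT than in the altered cells. The number of the 42 genes with an EZH2 peak at the start was 17 and 16 in the WT libraries, 12 and 9 in ATRXΔRBR and 5 and 9 in the lists labelled ATRX KD. As shares of the 42 these were 40.5% and 38.1%, 28.6% and 21.4%, and 11.9% and 21.4%. Across all annotated genes the shares were 26.4% and 24.1%, 25.6% and 17.9%, and 9.87% and 12.6%. Most of the 42 are protein-coding, and across protein-coding genes the shares were higher than in the 42 in every list. They were 50.55% and 46.77%, 49.19% and 35.02%, and 19.44% and 24.78%. For the patterns between the cells, shares over protein-coding genes were not counted. Airn, Cd81, Ppp1r9a and Slc22a3 had the peak in both WT lists and in neither ATRXΔRBR list, a pattern met by 0.765% of all genes, and no imprinted gene showed the reverse, which 0.00361% of all genes did. With peaks at a q value of 0.01 or less, Airn and Ppp1r9a kept that pattern. In both WT lists and neither list labelled ATRX KD were the starts of 8 genes, Airn, Cd81, Cdkn1c, Gnas, Mkrn3, Peg10, Sgce and Slc22a3, a pattern met by 9.70% of all genes.

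The labels name the same H3K27me3 antibody for all 6 lists, while the sources of the study name more than 1, so which was used is uncertain. H3K27me3 peaks were at 10 and 13 imprinted starts in the WT lists, 6 and 6 in ATRXΔRBR and 4 and 3 in the lists labelled ATRX KD. As shares of the 42 these were 23.81% and 30.95%, 14.29% and 14.29%, and 9.524% and 7.143%. All annotated genes had shares of 11.8% and 12.7%, 13.5% and 12%, and 3.75% and 3.43%. Protein-coding genes had shares of 15.58% and 16.43%, 16.18% and 14.65%, and 6.041% and 5.585%. The starts of Dio3, Gnas, Ndn and Ppp1r9a were marked in both WT lists and neither ATRXΔRBR list, as were 3.08% of all genes, and those of Dio3 and Ppp1r9a kept that pattern at a q value of 0.01 or less. Asb4 alone was marked in both ATRXΔRBR lists and neither WT list, as were 3.43% of all genes. A group of 7 genes, Ascl2, Gnas, Igf2, Mkrn3, Ndn, Plagl1 and Slc22a3, were marked in both WT lists and in neither list labelled ATRX KD, as were 7.35% of all genes.

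Coverage over whole genes was compared as well. The share of a gene and its start window under H3K27me3 peaks was at least 20 percentage points higher in both ATRXΔRBR lists than in both WT lists for Kcnq1ot1, Plagl1 and Asb4, against 3.57% of all genes, and at least 20 points lower for Ascl2, Dio3, Igf2 and Slc22a3, against 2.72% of all genes. This measure was chosen after the peaks had been seen. With 2 lists a group an exact permutation test over lists cannot fall below 0.05, no other test was run on the peaks, and the peak results are descriptions.

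**Figure D2:**
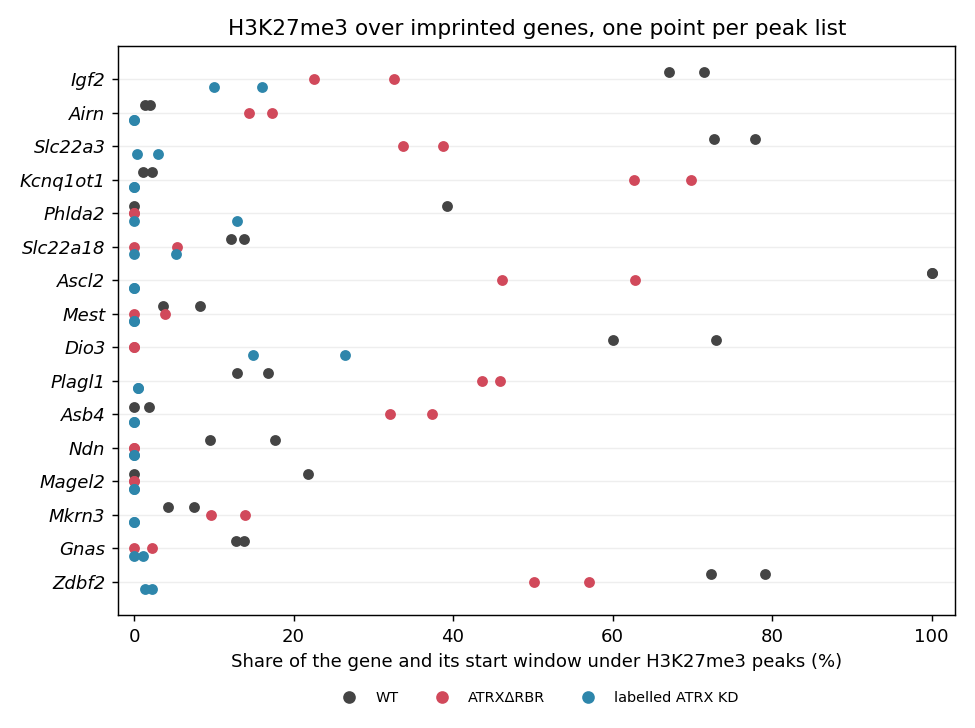
Share of each imprinted gene and its start window lying under H3K27me3 peaks (%), 1 point per peak list, for the genes with the larger shares. Genes with the mark over a smaller share in every list, Ppp1r9a among them (1.60% and 2.81% in the WT lists), are not drawn. In ATRXΔRBR the points of Kcnq1ot1 lie at 69.89% and 62.71% and those of WT at 1.07% and 2.24%, whereas Ascl2, Dio3, Igf2 and Slc22a3 lie lower than in WT.

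The Kcnq1ot1 cluster spans 536.3 kb (chr7:142966829-143503150) and holds 7 of the genes. Kcnq1ot1 is the paternally expressed long noncoding RNA that silences its neighbours in cis, and its start lies at the germline DMR of the cluster. Its promoter (chr7:143296498-143296797, minus strand, 250 bases before to 50 after the start, RefSeq, GRCm38.p6) is shown because the transcript changed in opposite directions in the altered cells, and capitals mark its 9 CG dinucleotides, where DNA methylation falls.
Kcnq1ot1: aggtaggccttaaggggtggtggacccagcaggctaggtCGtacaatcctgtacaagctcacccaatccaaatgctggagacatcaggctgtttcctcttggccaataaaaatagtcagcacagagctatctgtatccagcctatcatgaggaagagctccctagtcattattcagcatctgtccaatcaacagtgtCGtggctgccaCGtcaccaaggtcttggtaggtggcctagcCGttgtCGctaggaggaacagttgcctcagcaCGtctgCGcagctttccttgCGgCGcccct

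Kcnq1ot1 had 297 and 97 counts in the WT libraries, 8 and 8 in ATRXΔRBR and 493 and 1128 in the libraries labelled ATRX KD. The ATRXΔRBR libraries lay below both WT libraries, and the libraries labelled ATRX KD above them. The transcript was 21.8-fold lower in ATRXΔRBR than in WT (log2 fold change −4.45, SE 0.59, edgeR adjusted p = 0.004). Without WT replicate 1 the log2 fold change was −3.51. The call was lost with limma on log2(TPM + 1) or log2(TPM + 0.1), where the highest adjusted p was 0.362. In the libraries labelled ATRX KD it was 3.41-fold higher (log2 fold change 1.77, SE 0.39, edgeR adjusted p = 0.014), a call lost with limma on log2(TPM + 0.1) (adjusted p = 0.0621), and the log2 fold change was 2.68 without WT replicate 1. Kcnq1ot1 lies within and opposite to Kcnq1, and the strand setting of the counting is not given in the sources used here, so reads of the pair may be mixed.

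H3K27me3 lay over the body of Kcnq1ot1 in ATRXΔRBR and hardly at all in WT. The gene spans chr7:143203458-143296549, and its covered share was 1.07% and 2.24% in the WT lists, 69.9% and 62.7% in ATRXΔRBR and 0% in both lists labelled ATRX KD. The widest ATRXΔRBR peaks ran from −93.9 to −46.2 kb and from −93.2 to −47.1 kb on the chromosome relative to the start, over the far part of the transcript. No list placed an H3K27me3 peak within 2 kb of the start. An EZH2 peak at the start was called in WT replicate 2, ATRXΔRBR replicate 2 and both lists labelled ATRX KD, at chr7:143296386-143296725 in the WT list, where its fold enrichment was 4.86. Over the whole cluster, H3K27me3 peaks covered 5.87% and 6.16% in the WT lists, 17.4% and 15.2% in ATRXΔRBR and 0.365% and 0% in the lists labelled ATRX KD.

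**Figure D3:**
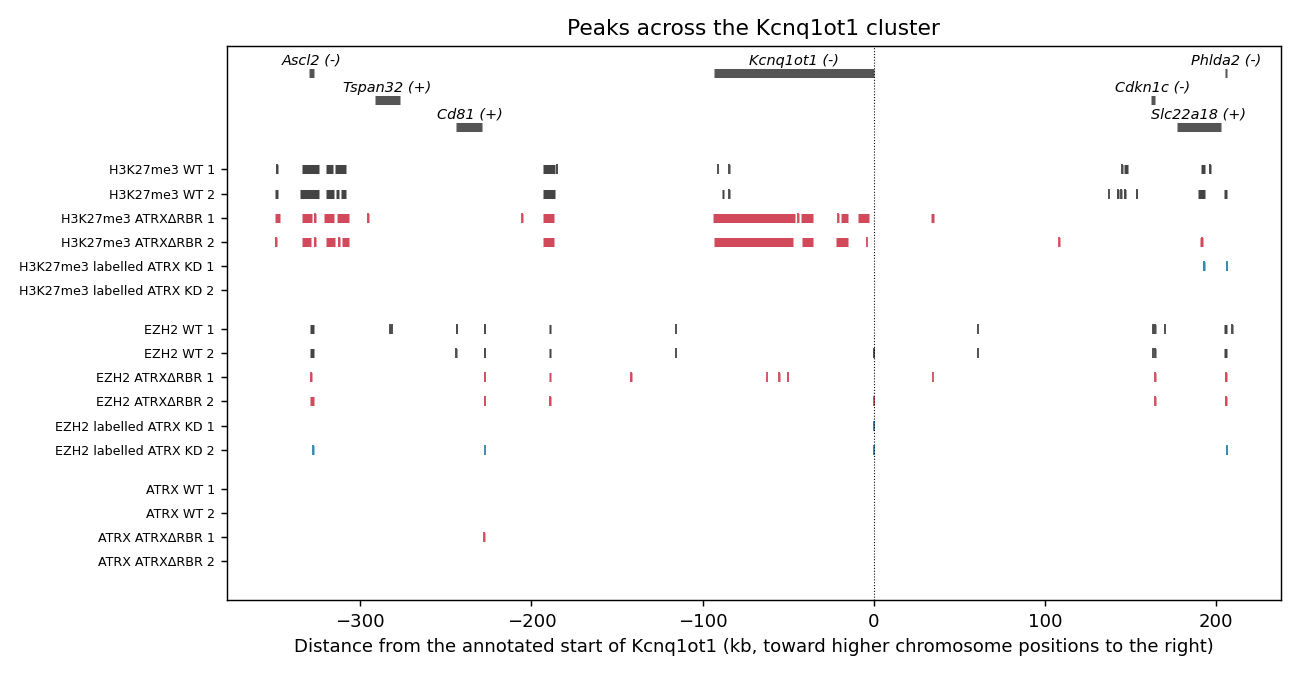
Peaks of H3K27me3, EZH2 and ATRX in each list across the Kcnq1ot1 cluster, by distance in kb from the annotated start of Kcnq1ot1 (higher chromosome positions to the right), with the genes and their strands above. In the ATRXΔRBR lists H3K27me3 fills the far part of the Kcnq1ot1 body, between about −93 and −47 kb, where each WT list holds 2 narrow peaks.

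The protein-coding genes of the cluster are all expressed from the maternal chromosome in imprinted tissues. Of them Cdkn1c, Cd81, Phlda2 and Slc22a18 were tested in the libraries labelled ATRX KD. The first 3 were called lower there, where 17.8% of all genes were. In ATRXΔRBR the same genes and Tspan32 were tested, and none was called lower, as were 4.08% of all genes. Cdkn1c, the cyclin-dependent kinase inhibitor p57, had 271 and 192 counts in the WT libraries, 182 and 314 in ATRXΔRBR and 0 in both libraries labelled ATRX KD. It was at least 190.3-fold lower there than in WT, taking 3 counts over the group as the floor (edgeR adjusted p = 0.000176), a bound that was 56.6-fold without replicate 2 labelled ATRX KD, and its log2 fold change in ATRXΔRBR was 0.20 (edgeR adjusted p = 0.667). Cd81, a tetraspanin of the cell surface, had 1828 and 1259 counts in the WT libraries, 1442 and 2586 in ATRXΔRBR and 163 and 345 in the libraries labelled ATRX KD. It fell 7.32-fold in the latter (log2 fold change −2.87, SE 0.18, edgeR adjusted p = 0.000159). Phlda2, which limits placental growth, had 9 and 7 counts in the WT libraries, 11 and 23 in ATRXΔRBR and 0 in both libraries labelled ATRX KD, at least 6.58-fold lower (edgeR adjusted p = 0.0158), or at least 1.95-fold and not called without replicate 2 labelled ATRX KD (edgeR adjusted p = 0.0511).

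Slc22a18, a transporter gene, had 7 and 5 counts in the WT libraries, 15 and 36 in ATRXΔRBR and 0 and 2 in the libraries labelled ATRX KD. It rose 4.39-fold in ATRXΔRBR (log2 fold change 2.14, SE 0.51, edgeR adjusted p = 0.0462), a call lost with DESeq2, with limma on log2(TPM + 0.1), without WT replicate 2 and without ATRXΔRBR replicate 2. In the libraries labelled ATRX KD the count ratio of WT to altered cells was 7.4 (95% counting interval 1.65 to 68.1, or at least 1.47 without replicate 2 labelled ATRX KD) and was not called (edgeR adjusted p = 0.0704). Tspan32, another tetraspanin, had 2 and 1 counts in the WT libraries, 7 and 15 in ATRXΔRBR and 1 and 0 in the libraries labelled ATRX KD. Its ratio of ATRXΔRBR to WT was 7.93 (counting interval 2.38 to 41.4) and was not called (edgeR adjusted p = 0.0616). Ascl2, a trophoblast transcription factor, was at 0 in all libraries, and H3K27me3 covered all of it (100%) in both WT lists, 62.9% and 46.1% in ATRXΔRBR and 0% in the lists labelled ATRX KD.

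Directly between the altered cells, Kcnq1ot1 was lower in ATRXΔRBR (log2 fold change −6.22, SE 0.23, edgeR adjusted p = 6.85e-07). Cdkn1c and Phlda2 were at least 222.9-fold and 15.3-fold higher, and Cd81 was 10.3-fold higher. The ratios of Slc22a18 and Tspan32 were 34.4 (counting interval 9.04 to 292) and 29.7 (4.80 to 1224). Without replicate 2 labelled ATRX KD the bounds for Cdkn1c, Phlda2 and Slc22a18 were 66.02-fold, 4.53-fold and 6.79-fold. The ratio of Tspan32 was then 8.79 and its call was lost (edgeR adjusted p = 0.0699), and without replicate 1 of that label it was at least 6.96.

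At the Cd81 start, EZH2 peaks of 245 bp were called in both WT lists (chr7:143052662-143052906 in replicate 1, fold enrichment 3.87 and −log10 q 1.47) and in no list of the altered cells. The promoter (chr7:143052500-143052799, plus strand) is rich in CG, with 23 dinucleotides against a median of 7 over all promoters of the RefSeq table, and stands below for comparison with that of Kcnq1ot1.
Cd81: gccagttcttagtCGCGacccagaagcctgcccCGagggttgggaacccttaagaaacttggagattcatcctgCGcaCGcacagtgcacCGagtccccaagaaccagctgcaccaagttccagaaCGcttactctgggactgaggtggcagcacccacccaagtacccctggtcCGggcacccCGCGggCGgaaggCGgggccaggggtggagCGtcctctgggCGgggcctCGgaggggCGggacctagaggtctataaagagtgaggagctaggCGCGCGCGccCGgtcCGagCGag

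Airn and Igf2r form the next cluster, which with Slc22a3 spans 441.2 kb of chromosome 17. Airn is the paternal noncoding RNA that runs antisense across the start of Igf2r and silences it, and Igf2r, the receptor that clears the growth factor IGF2, is expressed from the maternal chromosome. The Airn start (promoter chr17:12741061-12741360, plus strand, 3 CG dinucleotides) is shown because EZH2 was called there in both WT lists (fold enrichment 4.55 and 4.11) and in no list of the altered cells.
Airn: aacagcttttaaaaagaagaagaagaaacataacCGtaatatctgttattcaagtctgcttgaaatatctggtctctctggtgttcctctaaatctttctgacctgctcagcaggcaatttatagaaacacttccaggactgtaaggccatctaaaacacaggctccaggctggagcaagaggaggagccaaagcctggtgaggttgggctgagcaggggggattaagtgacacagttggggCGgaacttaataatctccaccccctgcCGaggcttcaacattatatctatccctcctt

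Igf2r had 558 and 797 counts in the WT libraries, 1052 and 985 in ATRXΔRBR and 2219 and 5603 in the libraries labelled ATRX KD. It rose 4.58-fold in the libraries labelled ATRX KD (log2 fold change 2.195, SE 0.21, edgeR adjusted p = 0.000614). In ATRXΔRBR the log2 fold change was 0.74 (SE 0.28) and was not called (edgeR adjusted p = 0.186), although the CPM of its libraries did not overlap those of WT. Igf2r was 2.71-fold lower in ATRXΔRBR than in the libraries labelled ATRX KD (log2 fold change −1.44, SE 0.20, edgeR adjusted p = 0.000746). Airn had 19 and 24 counts in the WT libraries, 28 and 34 in ATRXΔRBR and 19 and 28 in the libraries labelled ATRX KD, and was not called in any comparison. The genes overlap on opposite strands, so reads of 1 may have been counted for the other.

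H3K27me3 lay differently over the cluster in ATRXΔRBR. Its covered share of Airn (chr17:12741311-12860136) was 1.39% and 1.99% in the WT lists, 17.3% and 14.4% in ATRXΔRBR and 0% in both lists labelled ATRX KD, with the ATRXΔRBR peaks beginning about 81 kb past the Airn start. Slc22a3, an organic cation transporter gene at 0 in every RNA-Seq library, was covered for 72.8% and 77.8% of its length in the WT lists, 38.8% and 33.8% in ATRXΔRBR and 0.419% and 2.99% in the lists labelled ATRX KD. The cluster as a whole was covered for 33.2% and 35.8% in the WT lists, 24.7% and 20.1% in ATRXΔRBR and 1.05% and 0.854% in the lists labelled ATRX KD. Igf2r itself held no H3K27me3 peak in any list.

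**Figure D4:**
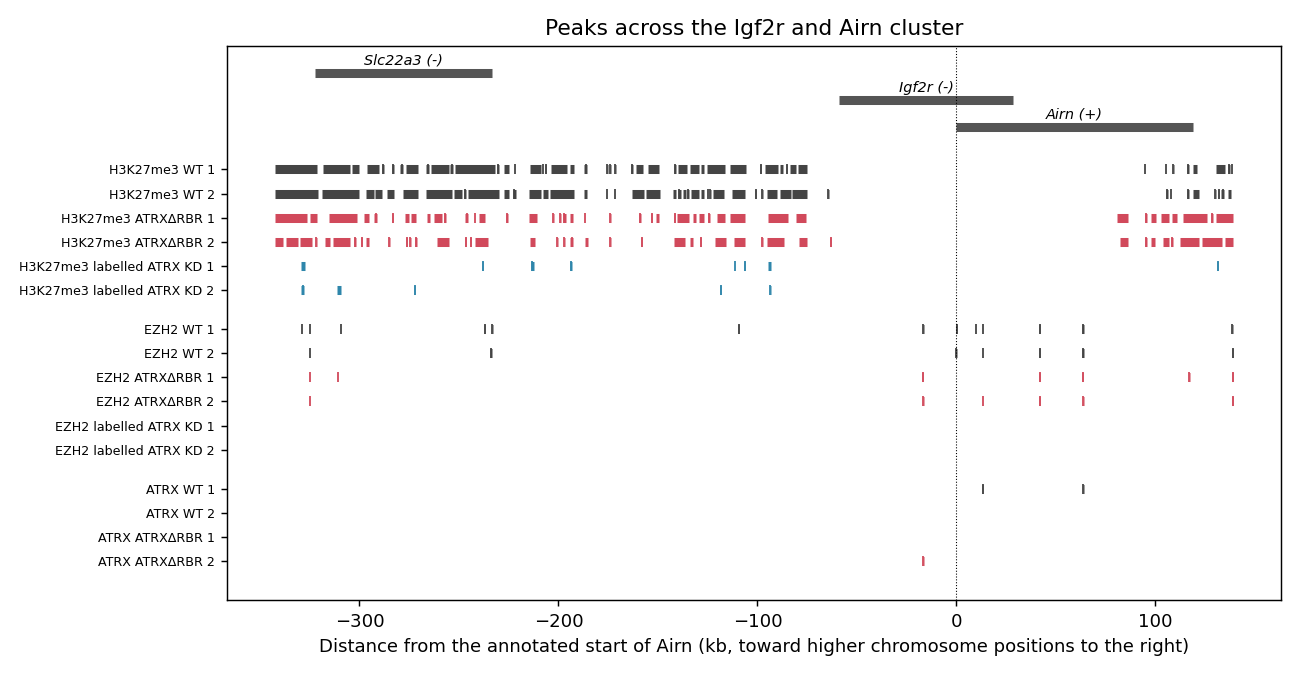
Peaks of H3K27me3, EZH2 and ATRX in each list across the Igf2r and Airn cluster, by distance in kb from the annotated start of Airn (higher chromosome positions to the right), with the genes and their strands above. WT H3K27me3 lies mainly over and beside Slc22a3, is narrower there in ATRXΔRBR, and the ATRXΔRBR lists add peaks from about 81 kb past the Airn start.

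The Dlk1/Dio3 cluster of chromosome 12 had its paternally expressed Dlk1 nearly lost from ATRXΔRBR. Dlk1, a Notch-related surface protein that holds back fat cell differentiation, had 577 and 342 counts in the WT libraries, 1 and 1 in ATRXΔRBR and 27 and 68 in the libraries labelled ATRX KD. The ratio of WT to ATRXΔRBR was 424.9 (95% counting interval 117.3 to 3514, edgeR adjusted p = 0.000216), and Dlk1 fell 11.9-fold in the libraries labelled ATRX KD (log2 fold change −3.57, SE 0.27, edgeR adjusted p = 0.000274). Between the altered cells, the ratio of the libraries labelled ATRX KD to ATRXΔRBR was 35.2 (counting interval 9.49 to 295, edgeR adjusted p = 0.000323). The maternally expressed noncoding RNAs of the cluster were scarce. Rian, the host of small nucleolar RNAs, had 7 and 8 counts in the WT libraries and 0 in all 4 altered libraries, at least 4.62-fold lower in ATRXΔRBR (edgeR adjusted p = 0.0503) and at least 6.17-fold lower in the libraries labelled ATRX KD (edgeR adjusted p = 0.0175, or 0.0598 without replicate 2 labelled ATRX KD, where the bound was 1.83-fold). Without ATRXΔRBR replicate 1 or 2 its bound in ATRXΔRBR was 2.74-fold or 1.88-fold. Meg3, a long noncoding RNA, had 3 and 7 counts in the WT libraries and 0 elsewhere, and Mirg, a host of miRNAs, was too scarce to test.

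Dio3, the deiodinase that inactivates thyroid hormone, lies at the far end of the cluster, and its peaks differed between the cells while its RNA was too scarce to test. H3K27me3 covered 60.1% and 72.9% of Dio3 and its window in the WT lists, 0% in both ATRXΔRBR lists and 26.4% and 14.9% in the lists labelled ATRX KD. EZH2 was called at the start in both WT lists, in ATRXΔRBR replicate 2 and in replicate 2 labelled ATRX KD. The promoter (chr12:110278980-110279279, plus strand) holds 25 CG dinucleotides.
Dio3: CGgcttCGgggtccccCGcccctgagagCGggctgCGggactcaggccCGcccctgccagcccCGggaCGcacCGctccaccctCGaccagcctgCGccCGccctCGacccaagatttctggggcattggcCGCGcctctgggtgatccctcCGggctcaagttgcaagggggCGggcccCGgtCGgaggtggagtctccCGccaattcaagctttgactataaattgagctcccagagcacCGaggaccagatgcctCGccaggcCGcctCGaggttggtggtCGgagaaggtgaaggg

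The Peg10/Sgce cluster spans 758.7 kb of chromosome 6, and its genes Ppp1r9a and Asb4 were called lower while Peg10 and Sgce, which face each other across the germline DMR, were not called in ATRXΔRBR. Ppp1r9a had 12 and 14 counts in the WT libraries and 0 in all 4 altered libraries. It was at least 8.01-fold lower in ATRXΔRBR (edgeR adjusted p = 0.0211) and at least 10.7-fold lower in the libraries labelled ATRX KD (edgeR adjusted p = 0.00777). The bounds were 4.755-fold and 3.26-fold without ATRXΔRBR replicate 1 or 2, and 3.18-fold without replicate 2 labelled ATRX KD. With limma the call in ATRXΔRBR was lost on log2(TPM + 1) and on log2(TPM + 0.1) (highest adjusted p 0.202), and that in the libraries labelled ATRX KD on log2(TPM + 1) (adjusted p = 0.0767). Asb4, an ankyrin repeat and SOCS box protein, had 38 and 23 counts in the WT libraries, 3 and 5 in ATRXΔRBR and 3 and 9 in the libraries labelled ATRX KD. Its log2 fold change was −2.78 in ATRXΔRBR (SE 0.52, edgeR adjusted p = 0.0177), a call lost with limma on either TPM scale, and −2.63 in the libraries labelled ATRX KD (SE 0.49, edgeR adjusted p = 0.00728). In both genes all altered libraries lay below all WT libraries.

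Peaks at these starts differed from WT in opposite directions in ATRXΔRBR. At Ppp1r9a, EZH2 and H3K27me3 peaks were in both WT lists and both lists labelled ATRX KD and in no ATRXΔRBR list, with the H3K27me3 peak at chr6:4901560-4905358 in WT replicate 1. At Asb4, H3K27me3 was in both ATRXΔRBR lists (chr6:5381462-5395517 in replicate 1) and in no other list, and covered 37.3% and 32% of the gene in ATRXΔRBR against 0% and 1.91% in WT. With the window set at any annotated transcript start, Asb4 no longer met the pattern. RNA of both genes was lower in ATRXΔRBR. The promoters of Ppp1r9a (chr6:4902725-4903024, plus strand, 10 CG dinucleotides) and Asb4 (chr6:5383136-5383435, plus strand, 6 CG dinucleotides) are set side by side because H3K27me3 was called at Ppp1r9a in WT and not in ATRXΔRBR, and at Asb4 in ATRXΔRBR and not in WT.
Ppp1r9a: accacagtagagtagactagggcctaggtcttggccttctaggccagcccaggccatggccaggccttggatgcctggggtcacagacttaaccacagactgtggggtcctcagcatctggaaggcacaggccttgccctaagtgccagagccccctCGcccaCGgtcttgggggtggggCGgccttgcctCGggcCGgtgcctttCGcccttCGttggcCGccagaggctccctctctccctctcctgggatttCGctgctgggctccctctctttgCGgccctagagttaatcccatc
Asb4: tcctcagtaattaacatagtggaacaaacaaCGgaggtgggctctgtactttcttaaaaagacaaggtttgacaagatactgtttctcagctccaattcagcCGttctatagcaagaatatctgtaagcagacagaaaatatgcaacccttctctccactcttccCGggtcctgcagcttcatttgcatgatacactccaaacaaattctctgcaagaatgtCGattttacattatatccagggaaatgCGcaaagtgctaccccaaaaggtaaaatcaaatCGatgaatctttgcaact

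Peg10, a retrotransposon-derived protein, had 1826 and 1542 counts in the WT libraries, 1463 and 1558 in ATRXΔRBR and 1928 and 4607 in the libraries labelled ATRX KD. It rose 1.57-fold in the latter (log2 fold change 0.65, SE 0.11, edgeR adjusted p = 0.0057), a call lost without either of those libraries (highest adjusted p 0.061), and its fitted log2 fold change in ATRXΔRBR was 0.00 (SE 0.20). Sgce was called in neither comparison with WT. Between the altered cells Peg10 was lower in ATRXΔRBR (log2 fold change −0.64, edgeR adjusted p = 0.0145) and Sgce higher (log2 fold change 0.43, edgeR adjusted p = 0.0294), and both calls were lost without either library labelled ATRX KD, that of Sgce also with DESeq2, with no filter, with the crossed block and with limma (highest adjusted p 0.343). EZH2 peaks inside Peg10, within reach of both start windows, were in both WT lists (chr6:4747943-4748323 and chr6:4749087-4749470 in replicate 1) and in ATRXΔRBR replicate 1. H3K27me3 covered 0.837% and 1.68% of the cluster in the WT lists, 5.78% and 4.17% in ATRXΔRBR and 0.709% and 0.334% in the lists labelled ATRX KD.

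Snrpn, which encodes the splicing protein SmN and has the germline DMR of the Snrpn/Ube3a cluster at 1 of its promoters, changed in opposite directions. It had 41 and 13 counts in the WT libraries, 0 in both ATRXΔRBR libraries and 184 and 371 in the libraries labelled ATRX KD. The gene was at least 16.6-fold lower in ATRXΔRBR than in WT (edgeR adjusted p = 0.0184, or 0.0574 with limma on log2(TPM + 1)) and 8.61-fold higher in the libraries labelled ATRX KD (log2 fold change 3.11, SE 0.39, edgeR adjusted p = 0.00165). Without WT replicate 1 the bound was 8.41-fold and the log2 fold change in the libraries labelled ATRX KD 4.05, and without ATRXΔRBR replicate 1 or 2 the bound was 9.88-fold or 6.77-fold. Between the altered cells it was at least 137.2-fold lower in ATRXΔRBR, or at least 81.3-fold and 55.9-fold without ATRXΔRBR replicate 1 or 2. The outermost annotated start of Snrpn, used here for its window, is an upstream start whose promoter holds 3 CG dinucleotides. No EZH2 or H3K27me3 peak lay over Snrpn in any list.

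Other genes of this cluster gave smaller fold changes or too few counts. Mkrn3, a RING finger protein, had 68 and 67 counts in the WT libraries, 50 and 66 in ATRXΔRBR and 28 and 65 in the libraries labelled ATRX KD, where it was lower (log2 fold change −0.84, SE 0.26, edgeR adjusted p = 0.0444). That call was lost with DESeq2, with the replicate block and without either library labelled ATRX KD, among others (highest adjusted p 0.252). Ube3a, a ubiquitin ligase imprinted in neurons, was not called in any comparison, and Peg12, a FRAT family gene, was called between the altered cells only (lower in ATRXΔRBR, log2 fold change −0.56, edgeR adjusted p = 0.0285), a call lost with DESeq2 and without either library labelled ATRX KD. Ndn, a MAGE family growth suppressor, had 6 and 3 counts in the WT libraries and 0 elsewhere, and its relative Magel2 was too scarce to test. H3K27me3 covered 9.57% and 17.7% of Ndn in WT and 0% in the altered cells, and 4.27% and 7.52% of Mkrn3 in the WT lists, 13.9% and 9.63% in ATRXΔRBR and 0% in the lists labelled ATRX KD.

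Grb10 was higher in both altered cells. It had 3668 and 3127 counts in the WT libraries, 5377 and 6739 in ATRXΔRBR and 4729 and 10995 in the libraries labelled ATRX KD, which averaged 269.6 ± 12.4 CPM (SD) over the 2 WT libraries and 528.1 ± 56.7 CPM (SD) over the 2 ATRXΔRBR libraries. The log2 fold change was 0.97 in ATRXΔRBR (SE 0.17, edgeR adjusted p = 0.0127) and 0.92 in the libraries labelled ATRX KD (SE 0.11, edgeR adjusted p = 0.0014). The direct comparison gave a log2 fold change of 0.07 (SE 0.12, edgeR adjusted p = 0.705).

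Zrsr1, a splicing factor retrogene that sits in an intron of Commd1 and carries the germline DMR at its promoter, was lower in ATRXΔRBR. Its counts were 242 and 240 in the WT libraries, 81 and 92 in ATRXΔRBR and 142 and 346 in the libraries labelled ATRX KD. The fall in ATRXΔRBR was 2.53-fold (log2 fold change −1.34, SE 0.22, edgeR adjusted p = 0.0108), a call lost with limma on either TPM scale (highest adjusted p 0.138), and Zrsr1 was also lower than in the libraries labelled ATRX KD (log2 fold change −1.04, edgeR adjusted p = 0.00405). Commd1, its host, was lower in the libraries labelled ATRX KD (log2 fold change −0.53, SE 0.17, edgeR adjusted p = 0.0475), a call lost without either of those libraries, with all 6 libraries in a single fit and with limma on either TPM scale (highest adjusted p 0.348). The pair overlaps, and its reads may be mixed. No H3K27me3 peak lay over either gene in any list.

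Plagl1, a zinc finger transcription factor, had 472 and 480 counts in the WT libraries, 323 and 344 in ATRXΔRBR and 70 and 161 in the libraries labelled ATRX KD. It fell 5.07-fold in the latter (log2 fold change −2.34, SE 0.16, edgeR adjusted p = 0.000199), and its log2 fold change in ATRXΔRBR was −0.37 (SE 0.21, edgeR adjusted p = 0.38). H3K27me3 covered 12.9% and 16.8% of Plagl1 in the WT lists, 45.9% and 43.6% in ATRXΔRBR and 0.511% and 0.534% in the lists labelled ATRX KD.

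Mest, a hydrolase-like protein, had 255 and 270 counts in the WT libraries, 176 and 258 in ATRXΔRBR and 405 and 871 in the libraries labelled ATRX KD, where it rose 2.00-fold (log2 fold change 1.00, SE 0.15, edgeR adjusted p = 0.00333). Dcn, a proteoglycan of the extracellular matrix that is imprinted in placenta, had 19 and 8 counts in the WT libraries, 30 and 53 in ATRXΔRBR and 0 in both libraries labelled ATRX KD. It was at least 11.1-fold lower than WT in the latter (edgeR adjusted p = 0.0111), or at least 6.88-fold without WT replicate 1 and 3.30-fold without replicate 2 labelled ATRX KD, and its log2 fold change in ATRXΔRBR was 1.72 (SE 0.45) and not called (edgeR adjusted p = 0.0649). Because Dcn is in the imprinted list, it was kept out of the fibroblast markers above. Blcap, a membrane protein, was lower in the libraries labelled ATRX KD (log2 fold change −0.56, SE 0.14, edgeR adjusted p = 0.0233), a call lost without either of them and with limma on either TPM scale (highest adjusted p 0.32). Its overlapping neighbour Nnat, a proteolipid with 13 to 40 counts, was not called in any comparison. Gnas and Impact, a regulator of the kinase GCN2, were likewise not called in any comparison, with Gnas at 6813 and 4544 counts in the WT libraries, 4204 and 8146 in ATRXΔRBR and 4424 and 12114 in the libraries labelled ATRX KD.

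**Figure D5:**
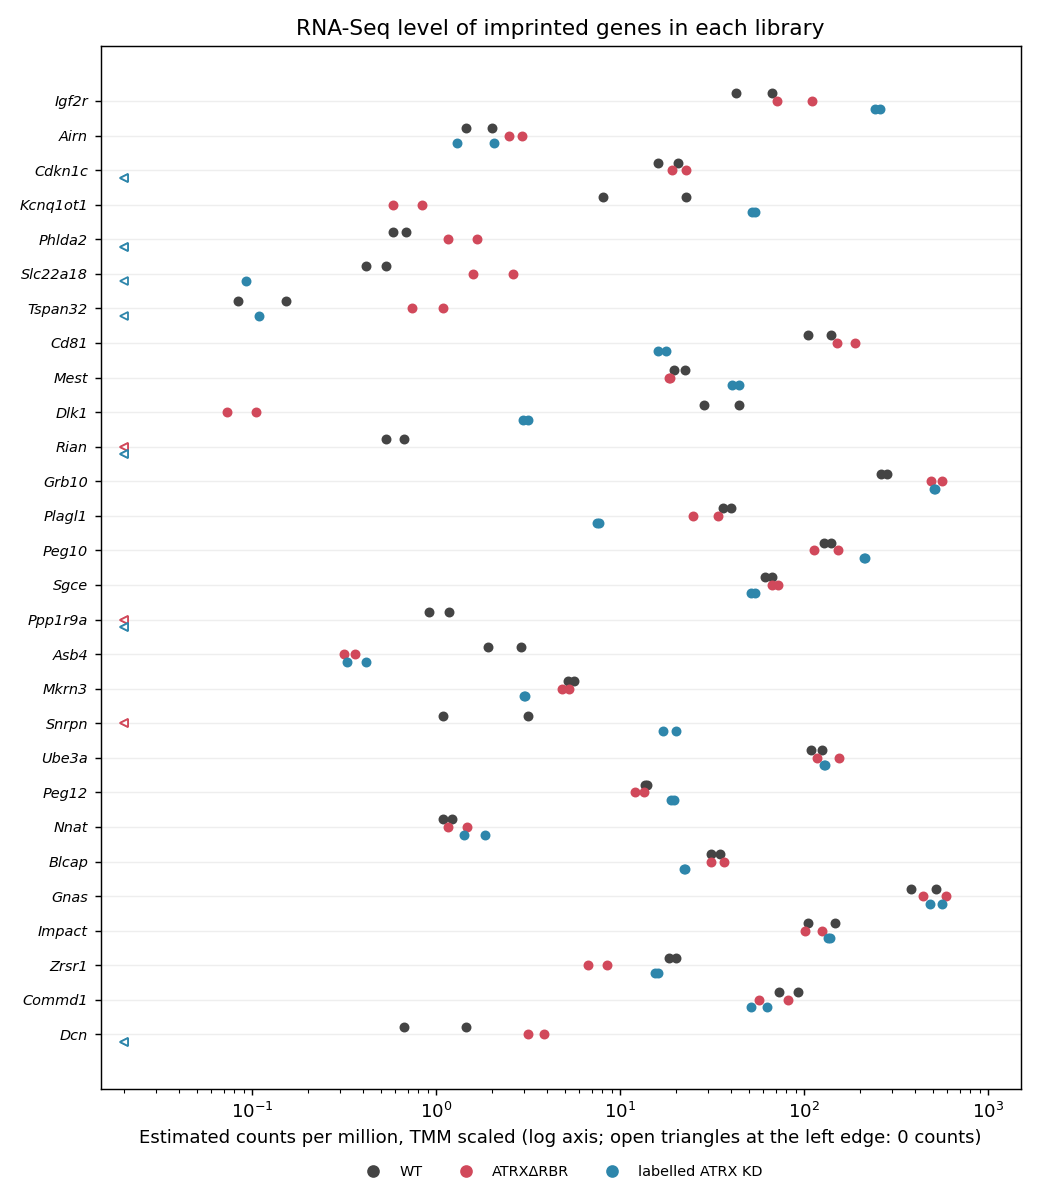
RNA-Seq level of each tested imprinted gene in each of the 6 libraries, in TMM-scaled CPM on a log axis, with 0 counts drawn as open triangles at the left edge. Kcnq1ot1, Dlk1 and Snrpn are low or at 0 in both ATRXΔRBR libraries, and Cdkn1c, Phlda2 and Dcn are at 0 in both libraries labelled ATRX KD.

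The remaining imprinted genes were without measurable RNA, and some of them were covered by H3K27me3. Igf2, the fetal growth factor, had 1 count in ATRXΔRBR and 3 and 1 in the libraries labelled ATRX KD, and H3K27me3 covered 67.1% and 71.5% of it in the WT lists, 32.6% and 22.6% in ATRXΔRBR and 16% and 9.98% in the lists labelled ATRX KD. Its partner H19, a long noncoding RNA, had 1 count in all. Zdbf2, a zinc finger gene, was at 0 in every library and was covered for 72.3% and 79.1% in the WT lists, 57.1% and 50.1% in ATRXΔRBR and 2.19% and 1.38% in the lists labelled ATRX KD. Peg3, a zinc finger gene, Usp29, a ubiquitin-specific protease, and Zim1, another zinc finger gene, form a cluster with no H3K27me3 peak in any list and no measurable RNA. Rasgrf1, a Ras exchange factor, was at 0 in every library. Gnas, by contrast, was abundant and carried H3K27me3 over 13.8% and 12.8% of its length in WT, against 2.31% and 0% in ATRXΔRBR and 0% and 1.14% in the lists labelled ATRX KD. Of the 3 peaks in each WT list, the one at the outermost start spanned 7008 and 7021 bp of the 8889 and 8211 bp covered.

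The 6 promoters printed are from the 36 imprinted genes with a promoter in the RefSeq table. They were chosen with the values known, Kcnq1ot1 for its transcript and the other 5 from the genes with an EZH2 or H3K27me3 peak at the start in both lists of either WT or ATRXΔRBR and in neither list of the other, a condition that Gnas, Ndn and Slc22a3 also met. Promoters of the 36 genes had a median of 13 CG dinucleotides, against 7 over 32851 promoters. The hexamer TGCCGC on either strand, the core of the site read by the imprint-protecting factor ZFP57 when methylated, occurred in 6 of the 36 promoters (16.7%), those of Commd1, Grb10, Meg3, Nnat, Plagl1 and Zim1, and in 11.6% of all promoters. It occurred in 3 of 11 windows of genes with a germline DMR at any of their promoters (27.3%) and in 3 of 25 others (12%). None of the printed windows holds these letters.

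Genes that guard imprints or build PRC2 were compared in the same fits. Of 22 tested genes of imprint maintenance, 0 were called in ATRXΔRBR by edgeR, with 1 at an unadjusted p under 0.05, and 0 were called by DESeq2 or by limma on log2 TPM. Zfp57 had a log2 fold change of 0.30 (edgeR adjusted p = 0.515) and Dnmt1, the maintenance methyltransferase, of −0.05 (edgeR adjusted p = 0.906). In the libraries labelled ATRX KD 7 of the 22 were higher (31.8%, against 15.2% of all genes) and 0 lower (against 17.8%), with 6 higher by DESeq2 and 5 by limma, led by Tet1 and Tet3, which oxidise methylcytosine, at 1.01 and 0.92, and the methyltransferase Dnmt3a at 0.97, followed by Arid4a at 0.69 and H3f3a at 0.61. Of 12 PRC2 genes, Ezh1, the alternative catalytic subunit, was higher in ATRXΔRBR (log2 fold change 1.03, SE 0.19, edgeR adjusted p = 0.0161) and the rest were not called, 8.33% against 6.88% of all genes. Limma on either TPM scale called 0 of the 12 there, and DESeq2 called 1 higher and 1 lower. In the libraries labelled ATRX KD 3 of the 12 were higher and 5 lower, against 15.2% and 17.8% of all genes, and limma on either TPM scale called 2 higher and 1 lower. The 5 largest of these log2 fold changes by edgeR were 1.26 for Ezh1, 0.83 for Phf19, −1.07 for Aebp2, −0.78 for Mtf2 and −0.70 for Phf1.

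The IGF axis, on which several imprinted genes act, was compared in the same way. Of 15 tested genes, which include Igf2r and Grb10, 4 were higher and 2 lower in ATRXΔRBR, where 6.88% of all genes were called, and 7 were higher and 6 lower in the libraries labelled ATRX KD, where 33.1% were. Limma on either TPM scale called 8 higher and 3 lower in the latter. Igf1, a growth factor of the same family, had 91 and 96 counts in the WT libraries, 7 and 7 in ATRXΔRBR and 31 and 64 in the libraries labelled ATRX KD (log2 fold change −3.59 in ATRXΔRBR, SE 0.37, edgeR adjusted p = 0.00145). Igfbp2, an IGF binding protein, had 15 and 13 counts in the WT libraries and 0 in all altered libraries. Igfbp6 and Igfbp4, IGF binding proteins too, were each called higher in ATRXΔRBR and lower in the libraries labelled ATRX KD. Igfbp6 had 29 and 17 counts in the WT libraries, 73 and 180 in ATRXΔRBR and 1 and 6 in the libraries labelled ATRX KD. Igfbp7 was higher in both (log2 fold changes 1.67 and 2.49), Igfbp4 was called higher in ATRXΔRBR and lower in the libraries labelled ATRX KD (log2 fold changes 2.16 and −2.07), and Igf2bp3, an RNA-binding protein, fell in the libraries labelled ATRX KD (log2 fold change −2.72).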

How the data were processed

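RNA-Seq was available for 6 libraries and CUT&RUN for 16 peak lists, grouped by GEO's labels. The authors aligned RNA-Seq reads with STAR and deposited RSEM estimated counts and TPM per gene, and the kit was directional, but the strand setting of the counting is not given in the sources used here. CUT&RUN reads were mapped to mm10 with Bowtie2, and the authors called broad peaks per library with MACS2, depositing for each peak its fold enrichment as a ratio over background and its −log10 q. Immunoglobulin control libraries were not analysed here.

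Identifiers were matched to GENCODE M21, which holds 53620 of the 53801 genes of the RNA-Seq files. Estimated counts were rounded, scaled by TMM and tested with edgeR 4.0.16 in R 4.3.3, 2 libraries against 2. The estimated counts are sums over both alleles. The study calls its genome-wide replicates biological and repeated, but the labels name no separate cultures, so p-values measure the spread between these libraries, and an exact permutation test of 2 against 2 cannot reach 0.05. Counting intervals and the floor of 3 counts cover counting error only. DESeq2 1.42.0 and limma 3.58.1, other filters, left-out libraries and blocks were alternatives, as were other windows and overlaps for peaks.

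Peaks overlapped a gene by at least 1 bp. Genes were named when called in any comparison, when most abundant in their cluster, or when peaks at the start were in both lists of a genotype and neither of another. Members, gene lists and promoters were chosen with earlier results of these data known. Capitals in the promoters were set to CG after no chosen window held TGCCGC. Related lists were other imprinted genes, imprint maintenance, PRC2 and the IGF axis, and marker lists of fibroblasts and other cells.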

Additional observations from a re-analysis of the deposited data

Results flagged for a closer look

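Kcnq1ot1 and Snrpn were called in opposite directions against WT in the altered cells, and were called between those cells as well. The share of all genes with this pattern was not counted, and both comparisons with WT share the WT libraries. Kcnq1ot1 was lower in ATRXΔRBR and higher in the libraries labelled ATRX KD, and the direct comparison of ATRXΔRBR with the libraries labelled ATRX KD gave a log2 fold change of −6.217 (SE 0.23, edgeR adjusted p = 6.85e-07). Snrpn followed the same pattern and was at least 137.2-fold lower in ATRXΔRBR than in the libraries labelled ATRX KD, counted from the floor of 3 counts over the group (edgeR adjusted p = 8.83e-06), or at least 81.3-fold and 55.9-fold without ATRXΔRBR replicate 1 or 2. Each direct call was kept in the 12 alternatives run for it. Against WT, the call for Kcnq1ot1 in ATRXΔRBR was lost with limma on either TPM scale (highest adjusted p 0.362) and that in the libraries labelled ATRX KD on log2(TPM + 0.1) (adjusted p = 0.0621), and the call for Snrpn in ATRXΔRBR was lost with limma on log2(TPM + 1) (adjusted p = 0.0574).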

How the results depend on the processing

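The crossed block, the start at any annotated transcript and the covered share were chosen after seeing the data. No value of a called imprinted gene changed direction. In ATRXΔRBR against WT the 8 called imprinted genes became 2 with at least 10 counts in every library, 4 with limma on log2(TPM + 1) and 4 on log2(TPM + 0.1), and 8 to 10 without 1 library. All genes called there numbered 597, 487, 518, 1979 with no filter and 1815 with all 6 libraries in a single fit, in place of 1120. In ATRX KD against WT the 18 ranged from 12 to 20 without 1 library, and no other setting moved them past 1.5 times. The 17 between the altered cells became 10 with at least 10 counts in every library and 12 to 20 without 1 library. Leaving out a library leaves 1 in its group, which is then assumed to vary like the others. With at least 10 counts in every library the 12 lower calls in ATRX KD against WT became 6, and the 6 higher calls 7. For named genes, 85 alternative values in ATRXΔRBR against WT kept the call and 13 lost it (6 genes), 202 kept and 21 lost it in ATRX KD against WT (8 genes), and 195 kept and 17 lost it between the altered cells (5 genes). Limma on TPM moved the median of all genes to 0.17 and 0.22 in ATRX KD against WT and to −0.138 and −0.178 between the altered cells, and no filter moved it to −0.125 in the former.

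Replicate numbers did not pair the libraries, since deviations of libraries with the same number correlated at −0.659, −0.117 and 0.155 across 12063 genes in the 3 comparisons. In ATRXΔRBR against WT the negative value means that libraries with opposite numbers deviated alike. The main fit did not model this shared difference, and its source was not tested. The replicate block gave 10, 17 and 18 called imprinted genes. With crossed numbers it gave 15 in ATRXΔRBR against WT, where 5547 of all genes were called, 18 in ATRX KD against WT and 16 between the altered cells.

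Counts of imprinted starts with a peak in both lists depended on the window and on single lists. For ATRX the 0 in ATRXΔRBR became 0 to 1 in single lists. For EZH2 the 5 in ATRXΔRBR became 10 with any annotated transcript start and 9 to 12 in single lists, and the 5 labelled ATRX KD became 3 at a q value of 0.01 or less and 5 to 9 in single lists. For H3K27me3 the 10 in WT became 5 by peak midpoint and 4 with at least 50% of the peak in the window, and the 5 in ATRXΔRBR became 3 with a 1 kb window, 1 by midpoint and 1 with at least 50%. The depth behind each peak list is not given in the files, and genes with under about 10 counts allow bounds or intervals only.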

Other observations

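Other imprinted genes outside the set of 42 gave 24 tested of 41 in ATRXΔRBR against WT, with 2 higher and 5 lower by edgeR (29.2%, against 6.88% of all genes). DESeq2 called 2 higher and 3 lower, limma on log2(TPM + 0.1) 0 and 3, and limma on log2(TPM + 1) 0 of them. Pon3, a paraoxonase gene that neighbours Ppp1r9a, had 13 and 21 counts in the WT libraries, 0 in both ATRXΔRBR libraries and 2 and 10 in the libraries labelled ATRX KD (edgeR adjusted p = 0.0175 in ATRXΔRBR). Casd1, a sialic acid acetyltransferase gene next to Sgce, fell in ATRXΔRBR from 635 and 708 counts to 255 and 266 (log2 fold change −1.22, SE 0.22, edgeR adjusted p = 0.0169). Phactr2 had 38 and 50 counts in the WT libraries, 0 and 1 in ATRXΔRBR and 33 and 95 in the libraries labelled ATRX KD (edgeR adjusted p = 0.00279 in ATRXΔRBR). Begain, a gene of the Dlk1 region, had 11 and 10 counts in the WT libraries, 0 in both ATRXΔRBR libraries and 2 and 0 in the libraries labelled ATRX KD. Herc3 rose in both altered cells, with log2 fold changes of 0.86 in ATRXΔRBR (edgeR adjusted p = 0.0359) and 2.07 in the libraries labelled ATRX KD (edgeR adjusted p = 0.000199).

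In the libraries labelled ATRX KD 25 of these other imprinted genes were tested, 5 were higher and 3 lower (32%, against 33.1% of all genes). Cobl, an actin nucleator next to Grb10, had 11 and 9 counts in the WT libraries, 1 and 1 in ATRXΔRBR and 95 and 288 in the libraries labelled ATRX KD (log2 fold change 3.88, SE 0.30, edgeR adjusted p = 0.000307). Nap1l5, a retrogene within an intron of Herc3, rose there from 3 and 2 counts to 12 and 30 (log2 fold change 2.71, SE 0.59, edgeR adjusted p = 0.0127), and reads of the pair may be mixed. Sfmbt2, a Polycomb group gene, fell from 166 and 149 counts to 24 and 35 (log2 fold change −2.64, SE 0.28, edgeR adjusted p = 0.000902).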
